A study of Mus musculus with 18 samples.

Results

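The genes described here are 5 members of the CCN family of secreted matricellular proteins, Nov, Ctgf, Cyr61, Wisp1 and Wisp2. They were taken by gene symbol from a table of 51499 assembled loci, of which 13032 reached 1 FPKM in at least 1 group, and all 5 members were among those 13032. FPKM is the number of sequenced fragments scaled for transcript length and for library size, so that levels of different genes can be compared. The cells were mouse embryonic fibroblasts (MEFs) labelled Ago2+/+ or Ago2-/-, lines the study received from another laboratory, with Ago2 encoding the slicing Argonaute of RNA silencing. Each genotype label comes with 3 treatments: DMSO as the solvent control, tunicamycin, an inhibitor of the first step of N-glycan assembly, and 500 nM thapsigargin, an inhibitor of the calcium pump of the endoplasmic reticulum (ER). Each of the 6 groups held 3 libraries, 18 in all, and the experiment asked whether AGO2 lowers particular mRNAs under ER stress.

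CCN proteins are released into the extracellular matrix, where they bind integrins, heparan sulphate proteoglycans and growth factors rather than building the matrix themselves. Cyr61 and Ctgf are immediate-early and growth-factor-responsive genes and standard readouts of the transcriptional co-activators YAP and TAZ, which work with TEAD factors, and Ctgf is also induced by TGF-beta. Nov is often opposed to Ctgf in its action on fibroblasts, and Wisp1 and Wisp2 were named for their induction by Wnt1. Their current symbols are Ccn1 (Cyr61), Ccn2 (Ctgf), Ccn3 (Nov), Ccn4 (Wisp1) and Ccn5 (Wisp2). Nov was 1 of the mRNAs that the study picked from these libraries for being lower under stress in the Ago2+/+ label and higher in the Ago2-/- label. Its values in those comparisons are therefore a description and not independent evidence of that pattern.

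The table gives 1 FPKM per group, estimated by the authors over its libraries, with no SD, so no difference below has a replicate check and none was tested. The depth of the libraries is unknown. A ratio is called past 2-fold where log2 of (FPKM + 0.1) differed by 1 or more. The targeted gene went against the labels. Taking DMSO, tunicamycin and thapsigargin in turn, Ago2 was at 22.1, 5.75 and 17.0 FPKM with the Ago2+/+ label and at 5.61, 15.5 and 20.7 FPKM with the Ago2-/- label. It was thus low in 1 group of each genotype label and high in 2 of each. The ER chaperone gene Hspa5 lay between 3677 FPKM in Ago2-/- thapsigargin and 7682 in Ago2-/- DMSO, and the stress gene Ddit3 between 237 FPKM in Ago2+/+ DMSO and 349 in Ago2-/- tunicamycin. These 2 stress genes were chosen after their values were seen. The 6 groups fell into 3 pairs that cross the labels, Ago2+/+ DMSO with Ago2-/- thapsigargin, Ago2+/+ tunicamycin with Ago2-/- DMSO, and Ago2+/+ thapsigargin with Ago2-/- tunicamycin. Between 2.02% and 4.87% of loci differed past 2-fold within these pairs, against 20.0% to 25.2% in the 12 other pairs of groups. Genotype labels also conflict for 4 libraries, which the pooled values give no way to leave out, so every genotype and treatment below is a label only.

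Fibroblast markers were present, with a summed level of 1597 to 2975 FPKM per group over 10 of the 11 marker genes, of which Vim, a general mesenchymal gene, made up 952 to 2634 FPKM. Others on the list were low, with Thy1 listed at 0 in every group, Lum at most at 0.0138 FPKM, Dcn at most at 1.06, and Pdgfra and Pdgfrb down to 0.488 and 0.540 FPKM. Summed endothelial markers stayed at or below 0.465 FPKM and epithelial markers at or below 1.33 FPKM. Of the 4 macrophage markers, Cd68 alone reached 1 FPKM, and the summed level was 1.23 to 2.35 FPKM. In RNA from whole cultures, fewer cells expressing a gene and less RNA per cell cannot be told apart.

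Nov (ENSMUSG00000037362) is a gene of 5 exons at chr15:54745702-54754039 on the plus strand of GRCm38. The study read this mRNA by quantitative PCR with a pair of primers, shown here because they mark the stretch of Nov that the study followed outside these libraries. The forward primer starts at base 814 of the 2869-base transcript and crosses from exon 3 into exon 4, with the bases of exon 4 in capitals. Its ends map to bases 54748014 and 54749159 of chromosome 15, on either side of an intron. The reverse primer lies in exon 5 at chr15:54752222-54752241, the product is 258 bases long, and both primers are in the coding sequence.
Nov forward: gcccttccagCCTATAGACC
Nov reverse: ggatttcttggtgcggagac
Neither primer had an exact match, in the same orientation, in the transcript with the longest coding sequence of each of the 4 other members. Other annotated transcripts of Ctgf, Wisp1 and Wisp2 were not searched. The longest run of bases shared by the Nov transcript with another member was 28, an AT repeat also found in Ctgf. The longest run shared by any of the other pairs was 18 bases, in Ctgf and Cyr61. These are exactly identical runs in the same transcripts, and longer stretches with mismatches were not sought.

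Nov was the least abundant member at its peak. With the Ago2+/+ label its level was 2.45 FPKM (DMSO), 0.0906 FPKM (tunicamycin) and 0.601 FPKM (thapsigargin). With the Ago2-/- label its level was 0.0615 FPKM (DMSO), 0.869 FPKM (tunicamycin) and 2.85 FPKM (thapsigargin). Only Ago2+/+ DMSO and Ago2-/- thapsigargin were above 1 FPKM, and at its lowest Nov lay above 3.71% of the loci in that group. From the highest group to the lowest the log2 range was 4.19, and 8.23% of all loci had a range at least as large. In the order of levels, Ago2-/- thapsigargin and Ago2+/+ DMSO lay 0.21 apart on the log2 scale, Ago2-/- tunicamycin and Ago2+/+ thapsigargin 0.47, and Ago2+/+ tunicamycin and Ago2-/- DMSO 0.24. The steps between those neighbours were 1.40 and 1.88, both past 2-fold.

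Ctgf (ENSMUSG00000019997), the connective tissue growth factor gene, lies at chr10:24595442-24598683 on the plus strand. Ago2+/+ libraries gave 10.7 FPKM (DMSO), 17.9 FPKM (tunicamycin) and 259.9 FPKM (thapsigargin) by label. Ago2-/- libraries gave 13.4 FPKM (DMSO), 125 FPKM (tunicamycin) and 7.45 FPKM (thapsigargin). Ago2+/+ thapsigargin and Ago2-/- tunicamycin thus stood apart, 2.08-fold from each other and the lower of them 6.98-fold above the next group. The 4 other groups were within 7.45 to 17.9 FPKM, and neighbours among them in the order of levels were less than 2-fold apart. The range of Ctgf was 5.11 on the log2 scale, matched or passed by 5.08% of loci. The locus of Ctgf in the table begins at 24549441 and also covers the antisense gene Gm15270 and the pseudogene Gm6893. These have entries of their own, Gm15270 between 0.0910 and 0.767 FPKM and Gm6893 listed at 0, and no source used here states whether the libraries keep strand, without which antisense reads cannot be told apart.

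Cyr61 (ENSMUSG00000028195), an immediate-early gene whose product binds integrins, is at chr3:145646976-145649981 on the minus strand and was the most abundant member in every group. Its level was 80.3 FPKM (DMSO), 178 FPKM (tunicamycin) and 364 FPKM (thapsigargin) with the Ago2+/+ label. The Ago2-/- label gave 179 FPKM (DMSO), 256 FPKM (tunicamycin) and 59.0 FPKM (thapsigargin). It therefore stayed above at least 86% of loci in each group, and its range of 2.62 on the log2 scale was matched or passed by 16.2% of loci. The only step past 2-fold between neighbours was that of 2.22-fold from Ago2+/+ tunicamycin down to Ago2+/+ DMSO.

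Cyr61 was the only member matched in the RefSeq promoter table (GRCm38.p6), which holds 300 bases around each start site. Pieces of 30 bases around its matches are shown because 4 of the members moved together, as described below, and Cyr61 is a standard YAP and TEAD target. Capitals mark the motif, and both strands were searched. The first piece lies at chr3:145650071-145650100 and the second at chr3:145649993-145650022, both read on the minus strand.
Cyr61 TEAD: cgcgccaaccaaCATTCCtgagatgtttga
Cyr61 TATA: ctaggcaggcatTATAAAgggcgggctccc
The TEAD element CATTCC begins 103 bases before the start site, and 14.7% of all 32851 promoters in the table hold it on either strand. The TATA box TATAAA begins 25 bases before the start site and is held by 13.6% of promoters. The CArG box, bound by the serum response factor SRF, had no match in this window and was present in 1.63% of promoters. None of the matches overlap, and a match is a run of letters and not a bound site.

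Wisp1 (ENSMUSG00000005124, chr15:66891320-66923201, plus strand) had levels of 11.7 FPKM (DMSO), 24.8 FPKM (tunicamycin) and 59.1 FPKM (thapsigargin) with the Ago2+/+ label. The levels with the Ago2-/- label were 26.0 FPKM (DMSO), 60.4 FPKM (tunicamycin) and 12.5 FPKM (thapsigargin). These are 3 levels of 2 groups each, and neighbours within a level differed by 1.02-fold to 1.07-fold. The steps between the levels were 2.27-fold and 1.98-fold. Its range was 2.36 on the log2 scale, matched or passed by 17.9% of loci.

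Wisp2 (ENSMUSG00000027656, chr2:163820861-163833146, plus strand) encodes the CCN protein that lacks the C-terminal cysteine-knot domain, and its coding sequence of 756 bases was the shortest of the 5, against 1047 to 1140 for the others. Levels with the Ago2+/+ label were 0.0304 FPKM (DMSO), 0.520 FPKM (tunicamycin) and 3.63 FPKM (thapsigargin). Those with the Ago2-/- label were 0.353 FPKM (DMSO), 7.86 FPKM (tunicamycin) and 0.108 FPKM (thapsigargin). Only Ago2-/- tunicamycin and Ago2+/+ thapsigargin were above 1 FPKM, the 2 groups in which Ctgf and Wisp1 were also highest. Wisp2 had the widest range of the 5 members, 5.93 on the log2 scale, and 2.97% of loci had one as wide. The sixth family gene, Wisp3, was listed at 0 in all 6 groups. The median range of the 5 members was 4.19, which is that of Nov, against 0.86 over all 13032 loci. The ranges of Nov and Wisp2 rest on lowest levels of 0.0615 and 0.0304 FPKM and shrink with a larger pseudocount. With a pseudocount of 1 FPKM the log2 ratio of Nov between its highest and lowest groups was 1.86. Ranges of the other members and of all loci were not computed at that setting. The order of the members by range is thus given for the 0.1 pseudocount only.

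**Figure D1:**
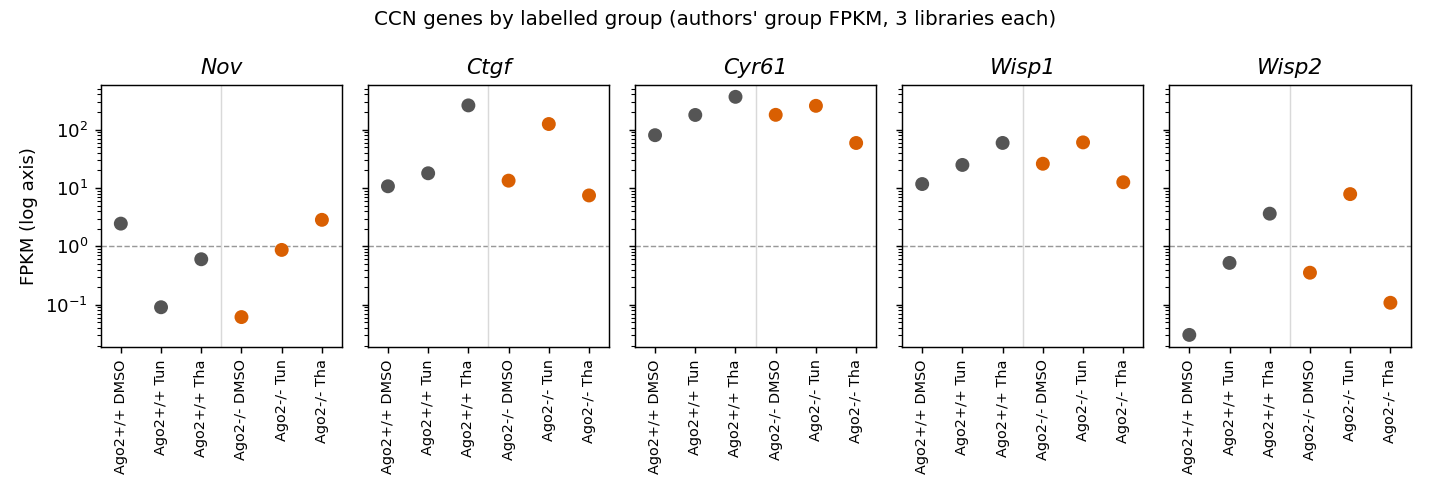
FPKM of the 5 CCN genes (vertical log axis) in the 6 labelled groups (Tun, tunicamycin; Tha, thapsigargin), each point being the authors' value over 3 libraries, with no error bar available, grey for the Ago2+/+ label and orange for the Ago2-/- label. The dashed line is 1 FPKM. Nov peaked in Ago2+/+ DMSO and Ago2-/- thapsigargin, and the 4 other genes in Ago2+/+ thapsigargin and Ago2-/- tunicamycin.

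Across the 6 groups, 4 members followed each other and Nov did not. Pearson's r of log2(FPKM + 0.1) was 0.97 between Wisp1 and Wisp2, 0.95 between Cyr61 and Wisp1, and 0.93 between Ctgf and each of Wisp1 and Wisp2. It was 0.87 between Ctgf and Cyr61 and 0.86 between Cyr61 and Wisp2. Nov gave r of -0.11 with Ctgf, -0.58 with Cyr61, -0.39 with Wisp1 and -0.24 with Wisp2. With Ago2, r was 0.96 for Nov, 0.16 for Ctgf, -0.33 for Cyr61, -0.16 for Wisp1 and -0.02 for Wisp2. These values describe 6 pooled points that lie in 3 close pairs. An r of 0.95 or more with Nov was found for 460 loci, 3.53% of all. With the 4 others it was found for 297 loci (2.28%, Cyr61) to 480 loci (3.68%, Ctgf). The share of loci that reach the lower r values between members was not computed.

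For tunicamycin over DMSO under the Ago2+/+ label, 3 of the 5 members were higher past 2-fold, as were 10.9% of all loci, and 1 was lower, as were 9.83%. Nov was lower, by 3.74 on the log2 scale (27.1-fold on plain FPKM). Wisp2 was 2.25 higher on the log2 scale, Cyr61 1.15 and Wisp1 1.08, and Ctgf, at 0.73, did not pass. With a pseudocount of 1 FPKM the value of Wisp2 became 0.56, short of 2-fold, and that of Nov -1.66, from levels of 0.0906 and 2.45 FPKM.

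For thapsigargin over DMSO under the Ago2+/+ label, 4 members were higher past 2-fold, against 10.8% of loci, and Nov was again the 1 member lower, against 9.15%. The log2 ratio was 4.84 for Wisp2, 4.59 for Ctgf, 2.33 for Wisp1 and 2.18 for Cyr61. Ctgf was thus 24.3-fold, Wisp1 5.06-fold and Cyr61 4.54-fold higher on plain FPKM. The log2 ratio of Nov was -1.86, a 4.08-fold lower level. With a pseudocount of 1 FPKM the ratio of Wisp2, from a DMSO level of 0.0304 FPKM, became 2.17 and that of Nov -1.11.

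Under the Ago2-/- label, 4 members were higher past 2-fold in tunicamycin over DMSO, against 13.4% of loci, and 0 were lower, against 11.8%. Nov was 2.59 higher on the log2 scale, Ctgf 3.21, Wisp1 1.21 and Wisp2 4.13, while Cyr61 was at 0.51. The ratio of Nov rests on a DMSO level of 0.0615 FPKM and became 0.82 with a pseudocount of 1 FPKM. That of Ctgf, from 13.4 to 125 FPKM, was 9.34-fold on plain values.

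For thapsigargin over DMSO under the Ago2-/- label the directions were turned, with 1 member higher past 2-fold, against 9.92% of loci, and 3 lower, against 11.2%. Nov was the higher one, with a log2 ratio of 4.19, from 0.0615 to 2.85 FPKM. Cyr61 was at -1.60, Wisp2 at -1.12 and Wisp1 at -1.05, and Ctgf, at -0.83, did not pass. With a pseudocount of 1 FPKM, Wisp1 came out just short of 2-fold, Wisp2 was at -0.29 and Nov at 1.86.

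The study's selection rule asked for lower levels under both stressors with the Ago2+/+ label and higher levels under both with the Ago2-/- label. It filtered by p-value, with no fold cut stated. Here each ratio had to pass 2-fold instead, so the counts do not repeat the study's list. This fold form was met by 1 member, Nov, and by 139 loci, 1.07% of all. With a pseudocount of 1 FPKM, or at 4-fold, it was met by 0 members, and the share of all loci was not computed at those settings. The opposite rule was met by 0 members and by 134 loci, 1.03% of all. The 2 comparisons of each label share a DMSO group, so a chance or real shift of that group enters both.

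The change under stress was also set against itself between the labels, as the log2 ratio in Ago2-/- minus that in Ago2+/+. Nov gave 6.33 under tunicamycin and 6.05 under thapsigargin, sizes matched or passed by 4.46% and 4.07% of loci. Under tunicamycin the difference, with the same share of loci in brackets, was 2.48 for Ctgf (16.7%) and 1.88 for Wisp2 (22.9%). It was 0.13 for Wisp1 (90.9%) and -0.64 for Cyr61 (59.4%). Under thapsigargin it was -5.96 for Wisp2 (4.21%), -5.42 for Ctgf (5.19%), -3.78 for Cyr61 (9.37%) and -3.38 for Wisp1 (10.6%). Thus the 4 genes that moved together differed between the labels by 3.38 or more under thapsigargin and by 2.48 or less under tunicamycin. Over all loci, 10.9% under tunicamycin and 8.03% under thapsigargin moved past 2-fold in opposite directions in the 2 labels.

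**Figure D2:**
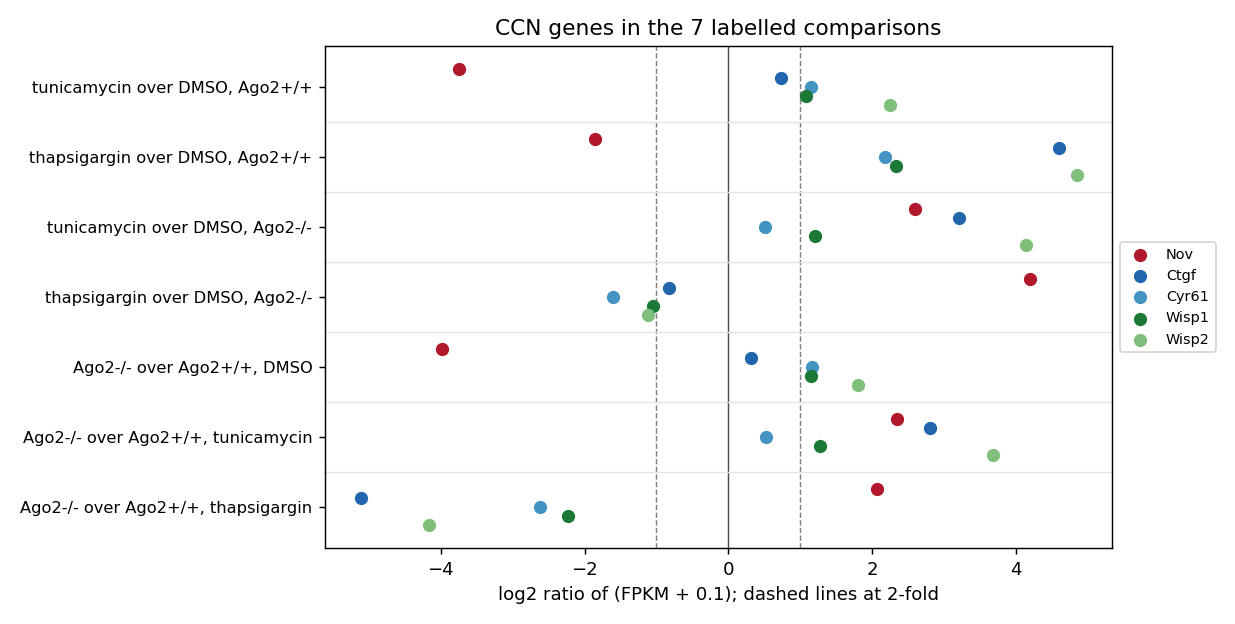
Horizontal axis, log2 ratio of (FPKM + 0.1) for the 5 CCN genes in the 4 comparisons of a stressor with DMSO and the 3 of the Ago2-/- label with the Ago2+/+ label. Each point is 1 gene, with no error available, and dashed lines mark 2-fold. Nov lay opposite to Cyr61, Wisp1 and Wisp2 in 5 of the 7 comparisons and on the same side as all 4 others in both tunicamycin comparisons that involve Ago2-/- tunicamycin.

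Between the genotype labels under DMSO, 3 members were higher past 2-fold in Ago2-/-, against 10.9% of loci, and 1 was lower, against 9.98%. Nov was lower by 3.98 on the log2 scale. Wisp2 was 1.80 higher, Cyr61 1.16 and Wisp1 1.15, and Ctgf was at 0.32. The ratio of Wisp2, between 0.0304 and 0.353 FPKM, was 0.39 with a pseudocount of 1 FPKM, and that of Nov was -1.70.

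Under tunicamycin, 4 members were higher past 2-fold in Ago2-/- than in Ago2+/+, against 13.4% of loci, and 0 were lower, against 11.2%. The log2 ratio was 3.68 for Wisp2, 2.80 for Ctgf, 2.35 for Nov, 1.28 for Wisp1 and 0.52 for Cyr61. Nov was 9.60-fold higher on plain FPKM, between 0.0906 and 0.869, and its log2 ratio was 0.78 with a pseudocount of 1 FPKM.

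Under thapsigargin, 1 member was higher past 2-fold in Ago2-/-, against 9.1% of loci, and 4 were lower, against 11.4%. Nov was the higher one, at 2.07 on the log2 scale or 4.73-fold. Ctgf was lower by 5.11 on the log2 scale (34.9-fold on plain FPKM), Wisp2 by 4.16, Cyr61 by 2.62 and Wisp1 by 2.23. The median over the members was -2.62, against -0.0221 over all loci.

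The members were also compared within the close pairs of groups. For Ago2-/- DMSO over Ago2+/+ tunicamycin, 0 members passed 2-fold in either direction, against 2.02% of loci, and for Ago2-/- thapsigargin over Ago2+/+ DMSO also 0, against 4.87%. For Ago2-/- tunicamycin over Ago2+/+ thapsigargin 2 members passed, against 2.36% of loci. Ctgf was lower there by 1.06 on the log2 scale and Wisp2 was 1.09 higher. The median absolute log2 ratio of the members in these pairs, in the order given, was 0.24, 0.44 and 0.51, against 0.096, 0.176 and 0.125 over all loci. Nov differed by 0.21 to 0.47 within the close pairs and by 1.40 to 4.19 in the 12 other pairs. For Wisp1 these ranges were 0.03 to 0.10 and 0.98 to 2.36, and for Wisp2 0.45 to 1.09 and 1.12 to 5.93. On plain FPKM the order of Wisp2 turned, with 3.55-fold in the close pair Ago2-/- thapsigargin over Ago2+/+ DMSO and 3.27-fold in the other pair Ago2-/- DMSO over Ago2-/- thapsigargin. The ranges overlapped for Ctgf, at 0.42 to 1.06 within and 0.32 to 5.11 in the others, and met for Cyr61, at 0.01 to 0.51 and 0.51 to 2.62. Whether the identity of the libraries accounts for these pairs was not tested.

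**Figure D3:**
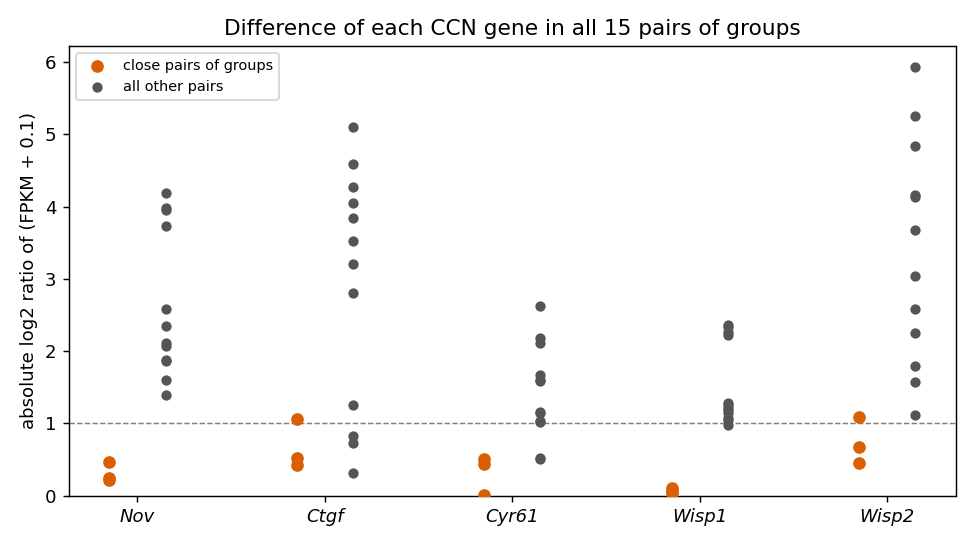
Absolute log2 ratio of (FPKM + 0.1) of each CCN gene (vertical axis) in the 3 close pairs of groups (orange) and in the 12 other pairs (grey), with the dashed line at 2-fold. For Nov and Wisp1 every close pair lay below every other pair, as it did for Wisp2 on this scale (1.09 against 1.12) but not on plain FPKM. For Ctgf the pairs overlapped.

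Lists of related genes are given by counts past 2-fold. Over all loci these 7 comparisons had 9.1% to 13.4% higher and 9.15% to 11.8% lower, and the median log2 ratio lay between -0.0221 and 0.0026. The receptors that CCN proteins bind varied less than the members. Of 14 receptor and co-receptor genes fixed as a list, 10 reached 1 FPKM, and between 0 and 3 of them were higher and 0 and 2 lower past 2-fold in the 7 comparisons, with a median range of 1.15 on the log2 scale. The widest was the laminin-receptor integrin Itga6, at 39.8, 73.6 and 8.27 FPKM in Ago2+/+ DMSO, tunicamycin and thapsigargin and at 76.8, 8.89 and 44.7 FPKM in the same order in Ago2-/-. It was thus lowest where Ctgf was highest. Next were Notch1, the receptor bound by the C-terminal part of Nov, between 0.933 and 4.22 FPKM, and the fibronectin-receptor integrin Itga5, between 21.5 and 57.8 FPKM.

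Among 16 measured genes of the Hippo pathway, the kinase cascade that restrains YAP and TAZ, with their TEAD partners, the median range was 0.57. The co-activator Yap1 itself was at 1035 FPKM in Ago2+/+ tunicamycin and 972 in Ago2-/- DMSO, and between 34.7 and 43.3 FPKM in the 4 other groups. Of the TEAD genes, Tead4 ranged from 6.81 to 35.8 FPKM and Tead3 from 5.88 to 24.9 FPKM. The groups with high Yap1 were not those with the highest Ctgf, which was at 17.9 and 13.4 FPKM there.

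The YAP and TAZ target list, 20 genes without Ctgf and Cyr61, had 19 genes at 1 FPKM or more. Under the Ago2+/+ label 10 were higher past 2-fold and 0 lower with tunicamycin (10.9% and 9.83% of all loci), and 9 and 0 with thapsigargin (10.8% and 9.15%). Under the Ago2-/- label 4 were higher and 3 lower with tunicamycin (13.4% and 11.8%), and 0 and 7 with thapsigargin (9.92% and 11.2%). The median log2 ratio of the list in these 4 comparisons was 1.05, 0.95, -0.04 and -0.92. Between the labels 6 were higher and 0 lower under DMSO (10.9% and 9.98%), 3 and 4 under tunicamycin (13.4% and 11.2%), and 0 and 10 under thapsigargin (9.1% and 11.4%). The widest ranges did not share 1 pattern. Igfbp3, a secreted binder of insulin-like growth factors, was at 60.7 FPKM in Ago2+/+ tunicamycin and 59.7 in Ago2-/- DMSO and at most 0.138 elsewhere. Ccdc80, a secreted matrix protein gene, was at 17.5 FPKM in Ago2+/+ thapsigargin and 19.4 in Ago2-/- tunicamycin and at most 1.24 elsewhere. Rbms3, an RNA-binding protein gene, was between 4.89 and 10.4 FPKM in those 4 groups and at 0.137 and 0.385 in the other 2.

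Of 14 TGF-beta and SMAD genes, 7 were higher past 2-fold and 0 lower for tunicamycin under the Ago2+/+ label (10.9% and 9.83% of all loci), and 4 and 1 for thapsigargin (10.8% and 9.15%). With the Ago2-/- label the counts were 3 and 1 for tunicamycin (13.4% and 11.8%) and 2 and 6 for thapsigargin (9.92% and 11.2%). The list medians were 0.96, 0.38, -0.58 and -0.84 on the log2 scale. Ltbp2, a matrix protein of the latent TGF-beta binding family, was near 24.0 FPKM in Ago2+/+ thapsigargin and Ago2-/- tunicamycin. Tgfbi, a secreted TGF-beta-induced protein gene, was at 5.81 and 7.97 FPKM in those groups and at most 1.43 elsewhere.

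The SRF list of 14 genes holds Srf, its actin-sensing co-activators Mkl1 and Mkl2, and genes of the actin cytoskeleton and contractile apparatus. Under the Ago2+/+ label 4 were higher and 3 lower past 2-fold for tunicamycin (10.9% and 9.83% of all loci), and 9 and 0 for thapsigargin (10.8% and 9.15%). With the Ago2-/- label 8 were higher and 0 lower for tunicamycin (13.4% and 11.8%), and 2 and 0 for thapsigargin (9.92% and 11.2%). The list medians were 0.16, 2.12, 1.35 and 0.09 on the log2 scale. The smooth-muscle actin gene Acta2 was at 1644 FPKM in Ago2+/+ thapsigargin and 1252 in Ago2-/- tunicamycin, and at most 3.77 elsewhere. Its contractile partners Tagln and Myl9 were at 648 and 312 FPKM in Ago2+/+ thapsigargin and 444 and 252 FPKM in Ago2-/- tunicamycin, and at most 2.90 and 0.251 elsewhere. These were the groups in which Ctgf, Cyr61, Wisp1 and Wisp2 were highest.

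Of 16 Wnt genes, 10 reached 1 FPKM, with at most 4 higher and 3 lower in any of the 7 comparisons. The cell-cycle gene Ccnd1 was lowest in Ago2-/- tunicamycin, at 10.6 FPKM, and highest in Ago2+/+ tunicamycin, at 207 FPKM. The Wnt feedback genes Notum and Nkd2 reached 2.17 FPKM in Ago2+/+ tunicamycin and 1.01 FPKM in Ago2-/- tunicamycin, respectively.

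Of 13 other matricellular genes, 8 reached 1 FPKM, with a median range of 5.27. Under the Ago2+/+ label 4 were higher past 2-fold and 0 lower for tunicamycin (10.9% and 9.83% of all loci), and 6 and 1 for thapsigargin (10.8% and 9.15%). With the Ago2-/- label 5 were higher and 1 lower for tunicamycin (13.4% and 11.8%), and 0 and 4 for thapsigargin (9.92% and 11.2%). The list medians were 1.51, 4.25, 1.61 and -1.33 on the log2 scale. Spp1, which encodes osteopontin, was at 1214 FPKM in Ago2+/+ tunicamycin and 2015 in Ago2-/- DMSO and at 16.0 and 20.1 FPKM in the groups with the highest Ctgf. Postn, which encodes periostin, was at 4.77 FPKM in Ago2+/+ thapsigargin and 10.1 in Ago2-/- tunicamycin, and at most 0.0251 elsewhere. Thbs2, a thrombospondin gene, was at 3.55 and 6.06 FPKM in those groups and at most 1.58 elsewhere.

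**Figure D4:**
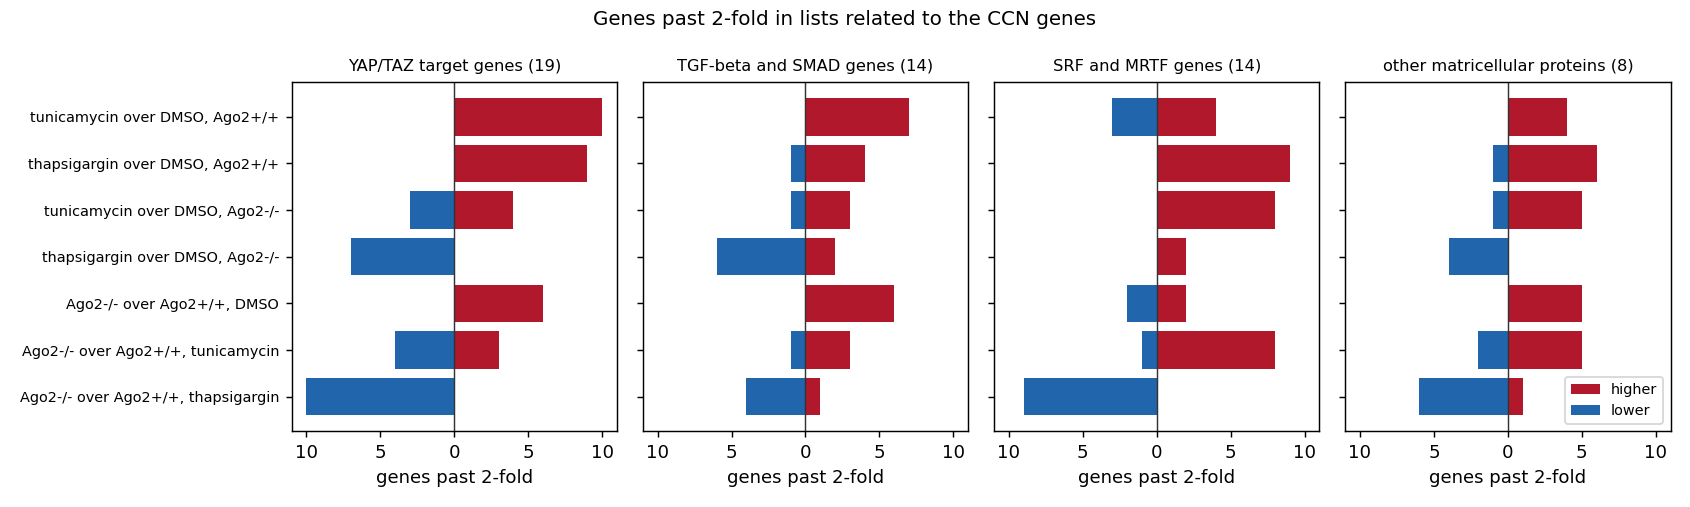
Number of genes past 2-fold, higher to the right and lower to the left (horizontal axis), in 4 lists related to the CCN genes, for the 7 labelled comparisons. The number of genes at 1 FPKM or more stands in brackets. In thapsigargin under the Ago2-/- label against the Ago2+/+ label, 10 of 19 YAP and TAZ targets and 9 of 14 SRF genes were lower and 0 higher (11.4% and 9.1% of all loci). Between the labels under tunicamycin, 3 targets were higher and 4 lower, and 8 SRF genes higher and 1 lower (13.4% and 11.2%). Under DMSO these counts were 6 and 0 for the targets and 2 and 2 for the SRF genes (10.9% and 9.98%).

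Markers of other cell types were mostly low. The muscle regulator Myf5 was at 18.9 FPKM in Ago2+/+ tunicamycin and 11.8 in Ago2-/- DMSO and listed at 0 in the others, while Myod1 and Myog stayed at or below 0.0118 and 0.0201 FPKM. Of 5 skeletal and cartilage markers, Sox9 (1.15 to 6.16 FPKM) and Runx2 (8.14 to 21.3 FPKM) reached 1 FPKM. The collagen genes Col1a1 and Col1a2 were lowest in the groups where Myf5 was high, at 5.97 and 6.77 FPKM for Col1a1 and 23.7 and 26.8 FPKM for Col1a2, and Pdgfrb reached 17.9 FPKM in Ago2-/- tunicamycin. The part of culture composition in the CCN values was not tested.

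By likeness of pattern over the 6 groups, the loci nearest to Nov were Plcl2 (r = 0.9992), Anxa11 (0.9980) and Cdc7 (0.9969). Plcl2 stayed between 0 and 1.04 FPKM, and Anxa11, an annexin gene, and Cdc7, a replication kinase gene, ranged less than Nov, from 10.9 to 21.4 and 12.2 to 23.0 FPKM. Nearest to Ctgf were Katna1 and Txlna (0.9969 each) and Pon2 (0.9967), and nearest to Cyr61 Morf4l2 (0.9981), Snd1 (0.9949) and Fkbp11 (0.9940). Wisp1 was nearest to Kank1 (0.9988), the tropomyosin gene Tpm1 (0.9978), which is also in the SRF list, and Zfp647 (0.9974). Wisp2 was nearest to C1qtnf1 (0.9976), Pdcd4 (0.9956) and Rab32 (0.9953). Between 297 and 480 loci had r of 0.95 or more with a given member, so these names mark the top of long lists.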

How the data were processed

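RNA from 18 MEF libraries was sequenced. The submitters' processing notes name FastQC 0.11.7, HISAT2 2.1.0, StringTie 1.3.4d, Cuffdiff 2.2.1 and GRCm38. The deposited table of 772485 rows holds the authors' FPKM for each pair of groups, pooled over 3 libraries. The authors' fold changes, test statistics, p-values, q-values and calls were not used. Groups follow the titles, where Ago2+/+ is written DCR1. Low values examined for whole-read steps lay near multiples of the best step in 30.1% to 44.2% of cases. The share without steps would be 20% for a step fixed in advance. The best step was picked from many, so an excess over 20% does not show steps. Most values in every group thus lay off the steps, and reads could not be recovered. Loci at 1 FPKM or more in a group (25.3%) were compared as log2(FPKM + 0.1) with Python 3.11.15, numpy 2.4.6 and pandas 2.3.3, without a test. The code of the fold rule was checked on Ago2+/+ DMSO values of at least 1 FPKM multiplied by known factors, with no noise. That check shows only that the code applies the rule. The rule for naming genes took the 5 members, Ago2, Wisp3, the 3 genes of widest range per list (14 lists, 140 genes) and the 3 loci most like each member. Vim, Thy1, Lum, Dcn, Pdgfra, Myod1 and Myog of the marker lists were named beyond this rule, after their values were seen. So were Hspa5, Ddit3 and the genes around Yap1. Gm15270 and Gm6893 were named for overlapping the Ctgf locus, and Srf, Mkl1 and Mkl2 only to describe their list. A gene of the TGF-beta list that this rule names is not reported here. Members and lists were chosen with earlier results of these data known. Transcripts and gene coordinates are from GENCODE M21 (GRCm38) and promoters from RefSeq.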

Additional observations from a re-analysis of the deposited data

Results flagged for a closer look

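The change under a stressor passed 2-fold in opposite directions in the 2 genotype labels for 1 member, Nov, under tunicamycin (10.9% of all loci did so) and for 4 members, Nov, Cyr61, Wisp1 and Wisp2, under thapsigargin (8.03%). As the log2 ratio in Ago2-/- minus that in Ago2+/+, Nov differed by 6.33 under tunicamycin and by 6.05 under thapsigargin. Under thapsigargin Cyr61 differed by -3.78, Wisp1 by -3.38 and Wisp2 by -5.96. With a pseudocount of 1 FPKM the tunicamycin change of Nov and the thapsigargin changes of Wisp1 and Wisp2 in Ago2-/- no longer passed 2-fold. None of these differences was tested, since each group has 1 pooled value, and the study picked Nov for this pattern. The groups also cross the genotype labels in their Ago2 level and over all loci.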

How the results depend on the processing

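Of 50 member ratios (5 genes in 10 comparisons), the direction was kept in each under every setting run. With no pseudocount 49 stayed on their side of 2-fold, and with a pseudocount of 1 FPKM 43 did. All 50 did with no filter, with a filter on the mean of 1 FPKM, and with centring on the median of all loci. The 2 filters could not change a member's ratio, since all 5 members pass both, so those 2 results were fixed in advance. Centring could move ratios only slightly, as the median of all loci lay between -0.0221 and 0.0026. With no pseudocount, Wisp2 passed in Ago2-/- thapsigargin over Ago2+/+ DMSO (1.83, 1 member in place of 0). With a pseudocount of 1 FPKM, 2 members in place of 4 passed for thapsigargin over DMSO in Ago2-/-. Tunicamycin over DMSO in each label had 3 in place of 4, as did Ago2-/- over Ago2+/+ under DMSO and under tunicamycin. For Ago2-/- tunicamycin over Ago2+/+ thapsigargin 1 passed in place of 2, with Wisp2 at 0.94. The fold form of the study's rule was met by 0 members in place of 1. At 4-fold, 2 in place of 4 passed for tunicamycin over DMSO in Ago2+/+ and 1 in place of 4 for thapsigargin over DMSO in Ago2-/-. For Ago2-/- over Ago2+/+ under DMSO 1 passed in place of 4, and for Ago2-/- tunicamycin over Ago2+/+ thapsigargin 0 in place of 2. For thapsigargin over DMSO in Ago2+/+ 4 passed in place of 5. Tunicamycin over DMSO in Ago2-/- and Ago2-/- over Ago2+/+ under tunicamycin each had 3 in place of 4. The fold form of the study's rule was again met by 0 in place of 1. The share of all loci passing was not computed at these settings, so these counts have no background beside them. Larger pseudocounts shrink ratios of low genes by construction, which here are Nov and Wisp2. No paired analysis was possible because the deposited values are pooled per group, and no library could be left out for the same reason.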

Other observations

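The high Yap1 of 2 groups was shared with genes beside it on chromosome 9, a region chosen after its values were seen. In Ago2+/+ tunicamycin and Ago2-/- DMSO, Dcun1d5 was at 935 and 989 FPKM, against at most 63.4 in the 4 other groups. Cep126 was at 182 and 122 FPKM against at most 3.88, and 9230110C19Rik at 110 and 106 FPKM against at most 5.05. The apoptosis inhibitors Birc2 and Birc3, which lie between them, were at 33.7 to 35.3 and 17.6 to 22.9 FPKM, against at most 16.2 and 9.29. Tmem123, in the same stretch, was at 32.5 and 34.4 FPKM in those groups and between 32.2 and 55.0 in the others, and Arhgap42 at 4.19 and 3.31 against 6.68 to 11.5. Of the CCN genes, Nov was at its lowest in these 2 groups and Ctgf, Cyr61, Wisp1 and Wisp2 were neither at their highest nor at their lowest.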
